A study of Ovis aries with 26 samples.

Results

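Histone lysine demethylases take methyl groups off lysines of the histone tails, and 9 of their genes were followed through sheep development before implantation: KDM1A, KDM1B, KDM2B, KDM3A, KDM4A, KDM4C, KDM5A, KDM5B and KDM6B. They were picked by symbol, with no measured value in the rule, but with earlier results of these data known. All 9 have a row among the 30186 genes of the expression table, and all 9 are among the 15766 genes tested, those with at least 1 FPKM in at least 2 libraries. FPKM counts fragments per kilobase of a gene's length and per 1e6 fragments assigned, so levels of different genes can be set side by side within a library. KDM2B passed that filter only through the stages where it is high, and KDM5B and KDM6B mainly so. A count over the members that passed is therefore given here as a description.

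The study collected unfertilized sheep oocytes at metaphase II (MII, n = 2 libraries) and embryos that were fertilized in vitro and then cultured. The embryos were taken with 2 cells (2C, n = 4), 4 cells (4C, n = 3), 8 cells (8C, n = 4) and 16 cells (16C, n = 3), as morulae (n = 3), as early blastocysts (EarlyB, n = 3) and as expanded blastocysts (ExpB, n = 4). Polyadenylated RNA was copied after direct lysis with Smart-seq2, which amplifies full-length cDNA from very little material. All 8 groups are untreated and differ by stage, no genotype or breed is named, and how many oocytes or embryos made up a library is not given in the labels, so p-values speak to the scatter among these libraries, part or all of which may be technical.

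Demethylases fall into families that differ in chemistry and in the lysine they act on. KDM1A (LSD1) and KDM1B (LSD2) are flavin-dependent amine oxidases that take methyl groups from histone H3 lysine 4 (H3K4), a mark of active promoters, and cannot act on the trimethylated form. The other 7 members carry a Jumonji C (JmjC) domain that uses iron and 2-oxoglutarate: KDM5A and KDM5B act on di- and trimethylated H3K4, KDM3A on mono- and dimethylated H3K9, KDM4A and KDM4C on trimethylated H3K9 and H3K36, KDM2B on H3K36, and KDM6B (JMJD3) on H3K27, the Polycomb mark. Around genome activation the embryo exchanges transcripts stored by the oocyte for its own, and the marks these enzymes act on are rebuilt in the same window.

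Reads assigned to genes ranged from 16.0 (an early blastocyst library) to 35.6 (an 8C library) in units of 1e6. At the shortest gene length that fits the values, the lowest member values rested on 8 reads for KDM6B, 14 for KDM5B and 40 for KDM2B, and on at least 58 for every other member. Read numbers bear on counting error only, because these reads carry no molecular identifiers. Library 3 of 16C stood apart from the other 16C libraries, with Pearson correlations of 0.91 and 0.92 across tested genes against 0.96 between those other libraries, so results at 16C are given with and without it where it matters. The stage labels were checked on markers: 11 of 11 oocyte markers were in the table, and their summed level ran from 9763 to 12285 FPKM in MII and from 12.7 to 27.4 in ExpB. The 10 trophectoderm markers summed to between 8.84 and 11.3 in MII and between 3334 and 7526 in ExpB. Of 14 markers of cumulus and granulosa cells, the companions of the oocyte, 12 were in the table, and they summed to between 29.8 and 38.6 in MII, 60.3 and 249 in 2C, 155 and 563 in 4C, and 11.2 and 18.6 in ExpB. The same markers summed to between 19.4 and 145 in 8C and between 25.7 and 122 in 16C. In morulae they summed to between 12.5 and 54.4, and in EarlyB to between 10.7 and 25.7. Sperm markers summed to at most 0.973 in every library up to 16C, but were higher from the morula on. Their sums lay between 11.2 and 13.02 in morulae, 9.43 and 12.9 in EarlyB, and 2.9966 and 5.57 in ExpB.

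The make-up of the demethylase transcripts differed before and after the morula stage. In MII oocytes KDM1A and KDM1B together made 92.7% ± 1.30 (SD, n = 2) of the summed FPKM of the 9 genes. Their share was 86.1% ± 2.22 (n = 4) in 8C, 70.2% ± 1.98 (n = 3) in 16C and 23.1% ± 2.83 (n = 3) in morulae. KDM5A and KDM5B went the other way, with 0.921% ± 0.0147 (n = 2) in MII, 7.23% ± 2.403 (n = 3) in 16C and 51.2% ± 8.35 (n = 3) in morulae. The ranges of the libraries at 16C and at the morula did not overlap for either pair. In ExpB the amine oxidases stood at 30.5% ± 3.68 (n = 4) and the KDM5 pair at 35.2% ± 1.67 (n = 4). These are shares of a sum and were not tested.

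**Figure D1:**
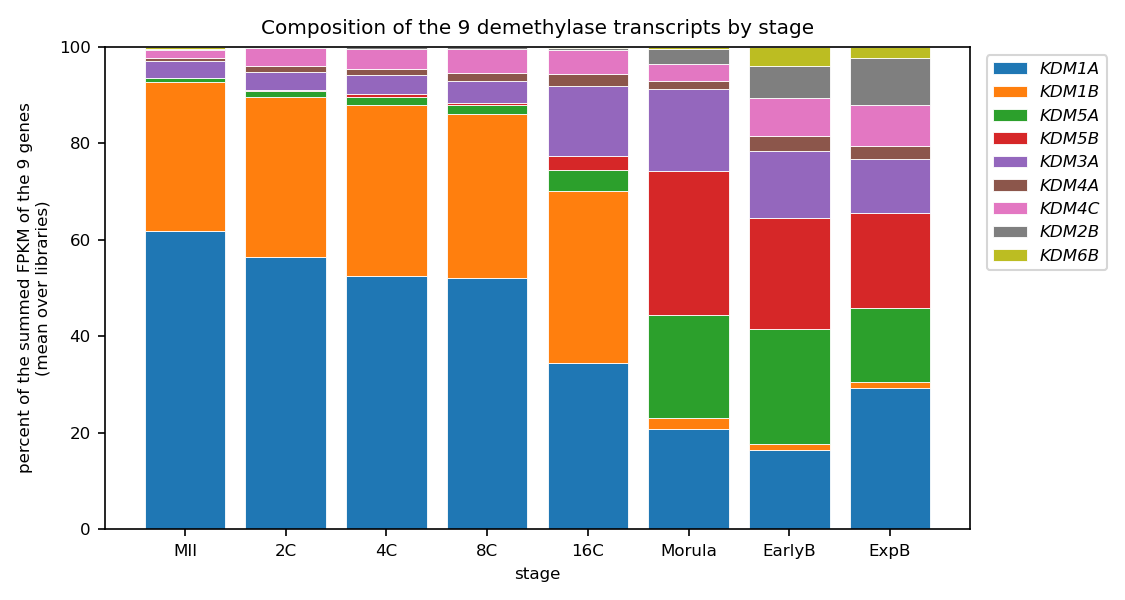
Mean percent of the summed FPKM of the 9 genes held by each gene (y axis) at each stage (x axis), 2 to 4 libraries per stage. KDM1A and KDM1B make 92.7% in MII and 23.1% in morulae, while KDM5A and KDM5B make 0.921% and 51.2%.

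Differences between stages were fitted with limma on log2(FPKM + 1) over all 26 libraries, and a gene is said to rise or fall where its Benjamini-Hochberg adjusted p was under 0.05 and its difference at least 1. Differences on this scale understate the change of genes near or below 1 FPKM. From MII to 2C, from 2C to 4C and from 4C to 8C, 0 of 9 members were called. Of all tested genes 6.45% were called in the first of these steps (4.44% higher, 2.01% lower), 0.00634% in the next (all higher, 0% lower) and 0.907% in the last (0.577% higher, 0.33% lower). In limma's test with no minimum difference, 2 members (KDM4C and KDM6B) pass in 2C against MII, at an adjusted or an unadjusted p under 0.05. In the next 2 steps 0 pass either way. Of all 15766 tested genes, 1738 pass at the adjusted and 3686 at the unadjusted p in 2C against MII. The same numbers are 2 and 1329 in 4C against 2C, and 236 and 2460 in 8C against 4C. From 8C to 16C, 1 member rose and 1 fell, where 7.55% of all tested genes were called (5.54% higher, 2.01% lower). From 16C to the morula 3 rose and 1 fell, where 43.1% of genes were called (28.1% higher, 15% lower). From the morula to EarlyB 1 rose, where 27% of genes were called (14.7% higher, 12.4% lower), and from EarlyB to ExpB 2 fell, where 17.7% were called (4.65% higher, 13.1% lower). At 4 of 9, the members' share at the morula step is near the share of all genes, so it says nothing particular about demethylases.

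**Figure D2:**
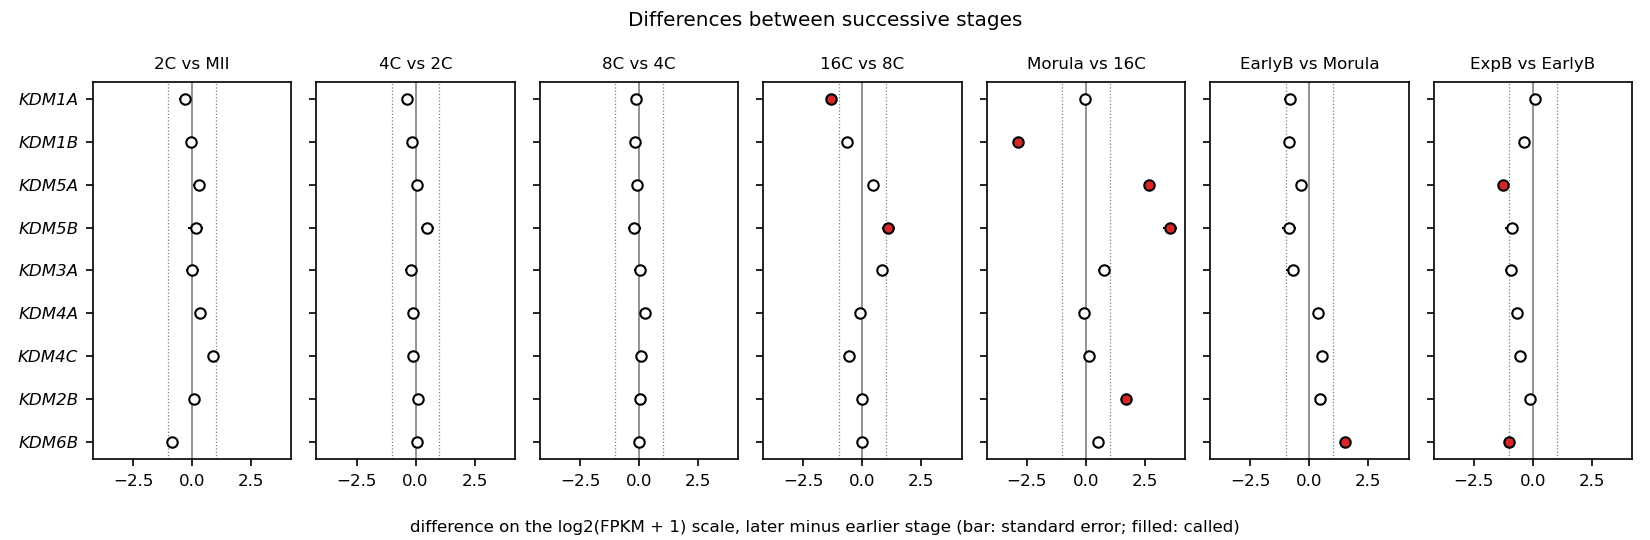
Difference between successive stages for each gene on the log2(FPKM + 1) scale (x axis, later minus earlier, bars are standard errors and are often smaller than the points). Filled points are called changes, which stand from 16C onward and reach −2.88 for KDM1B and 3.55 for KDM5B from 16C to the morula, and dotted lines mark a difference of 1.

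Over the longer spans more members were called. Between 8C and the morula 4 rose and 2 fell, where 49.7% of all tested genes were called (30.6% higher, 19.1% lower). Between MII and ExpB 3 rose and 2 fell, where 53.7% were called (32.8% higher, 20.9% lower). These 2 comparisons share no library, but both use the spread estimated over all 26 libraries, so they are not independent. In a moderated F test over all stages every one of the 9 members varied, with adjusted p from 1.83e-18 for KDM1B to 0.0113 for KDM4A, as did 93.7% of tested genes. The median difference of the 9 members from 16C to the morula was 0.52 against 0.32 over all tested genes. That shift of all genes depends on the scaling, being 0.18 on the TPM scale, 0.19 with median-ratio scaling and 0.02 after quantile normalization, and the 3 rises and 1 fall of the members stood under each of these.

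KDM1A, the catalytic subunit of the CoREST corepressor, was the most abundant member in the oocyte and fell between 8C and 16C. It stood at 107 and 129 FPKM in MII, at 81.9, 94.6, 96.5 and 111 in 2C, at 92.0, 62.7 and 69.7 in 4C, and at 74.9, 88.0, 53.1 and 57.6 in 8C. Each of these stages overlapped with the next, and no step up to 8C was called. In 16C it stood at 19.7, 22.5 and 40.5, with library 3 the highest and all 3 below every 8C library. In morulae KDM1A stood at 21.3, 29.7 and 26.3, within the range of 16C, and in EarlyB at 15.1, 12.02 and 14.7. In ExpB it stood at 14.03, 15.2, 17.0 and 13.2, overlapping with EarlyB. From 8C to 16C KDM1A fell by 1.32 (SE 0.22, adjusted p = 0.000165), and it fell by 1.63 without 16C library 3. With the 8C and 16C libraries fitted alone, the call was lost (adjusted p = 0.0855). From MII to ExpB it fell by 2.90 (SE 0.25, adjusted p = 4.13e-10), 7.92-fold in mean FPKM.

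KDM1B, known in mice for setting up maternal imprints in the growing oocyte, fell at the morula, from a mean of 27.5 FPKM in 16C to 2.81. It stood at 59.3 and 56.9 FPKM in MII, at 62.8, 54.5, 54.0 and 53.0 in 2C, at 62.4, 41.1 and 47.7 in 4C, and at 55.8, 41.6, 38.4 and 40.3 in 8C. Each of these stages overlapped with the next. In 16C it stood at 33.2, 28.7 and 20.6, below every 8C library, with a difference of −0.67 (SE 0.18) whose adjusted p was 0.013 but which missed the minimum difference. Without 16C library 3 that difference was −0.48 (adjusted p = 0.0977). In morulae KDM1B stood at 2.42, 2.94 and 3.08, far below 16C, and it fell by 2.88 (SE 0.19, adjusted p = 5.89e-11). It then stood at 1.45, 1.22 and 0.705 in EarlyB and at 0.771, 0.568, 0.512 and 0.628 in ExpB, where the ranges overlap. From MII to ExpB KDM1B fell by 5.19 (SE 0.205, adjusted p = 1.04e-15), 93.7-fold in mean FPKM.

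From MII to ExpB all 11 oocyte markers fell, as both amine oxidases did, but the steps differed for KDM1A. The 11 of them summed to between 4886 and 6565 FPKM in 16C and between 592 and 870 in morulae, and 10 of 11 fell at that step, with a median difference of −2.78. KDM1B's −2.88 lay near that median, while KDM1A, at −0.04 (SE 0.23, adjusted p = 0.914), showed no called change there. From 8C to 16C, where KDM1A fell, 1 of 11 oocyte markers fell, with a median difference of −0.52. In whole embryos fewer cells of a type and less RNA per cell cannot be told apart, and the part that the loss of stored oocyte RNA has in either gene was not tested.

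**Figure D3:**
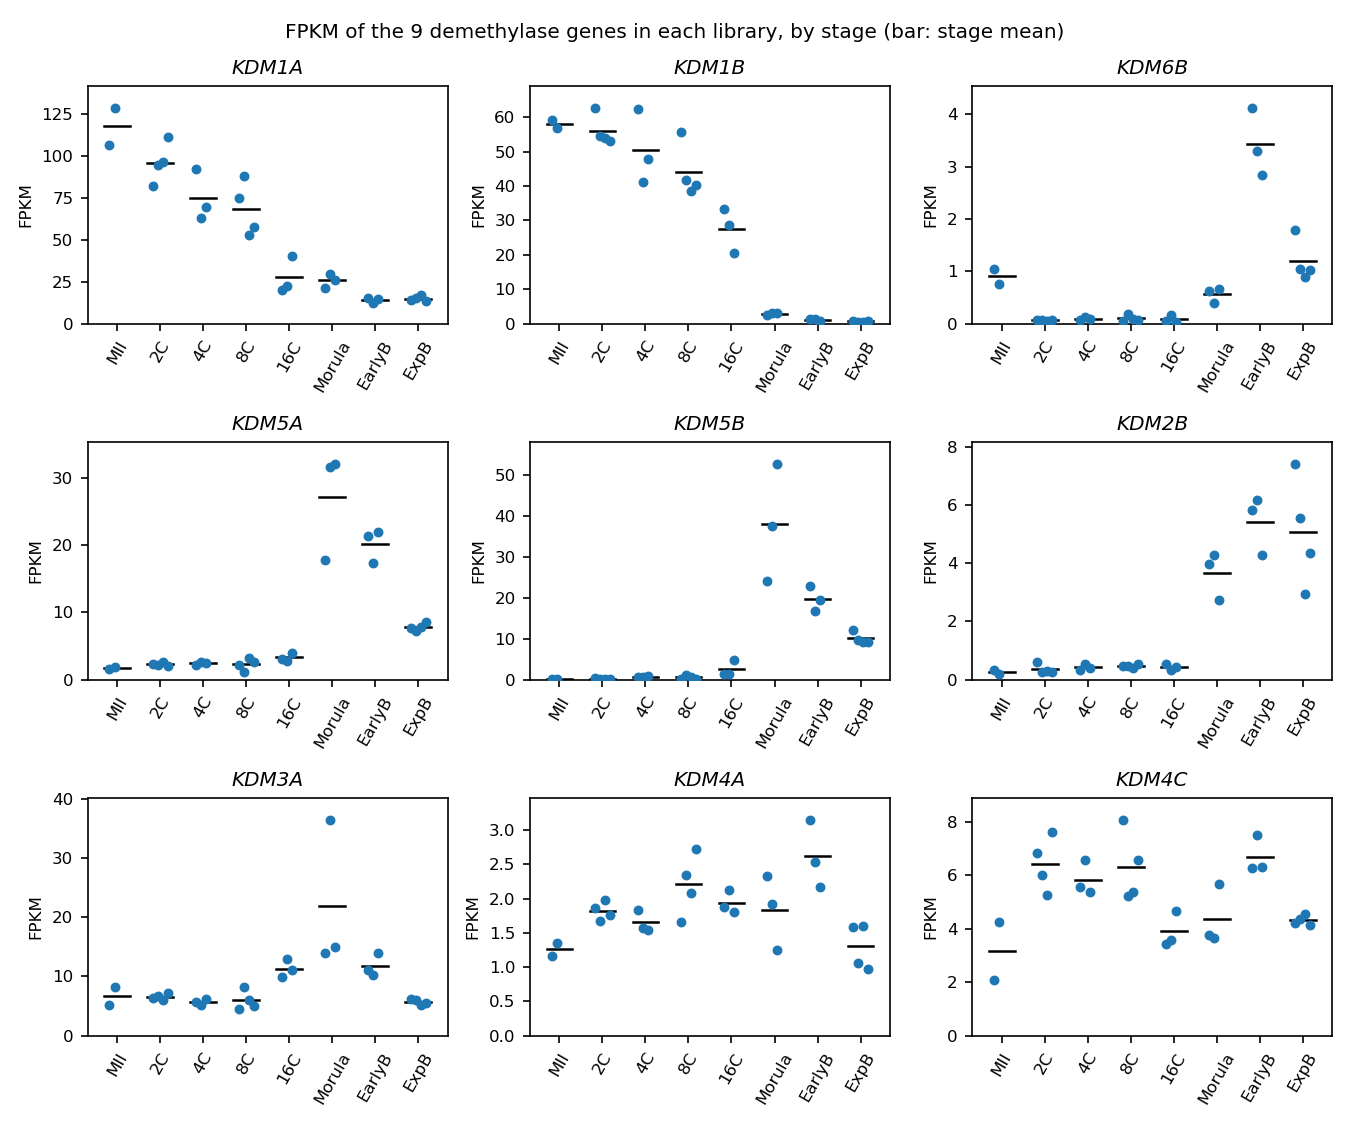
FPKM of each of the 9 genes (y axis, linear, its own scale per panel) in every library (points) by stage (x axis), with bars at the stage means. KDM1A and KDM1B are highest in MII (107 to 129 and 56.9 to 59.3 FPKM), KDM5A and KDM5B in morulae (17.7 to 32.1 and 24.0 to 52.7), and KDM6B in EarlyB (2.85 to 4.13).

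KDM5A and KDM5B, which erase the trimethylated H3K4 that KDM1A and KDM1B cannot act on, were low up to 8C and rose together at the morula. KDM5A stood at 1.54 and 1.80 FPKM in MII, between 2.07 and 2.58 in 2C, between 2.16 and 2.59 in 4C and between 1.13 and 3.23 in 8C. In 16C it stood at 3.11, 2.81 and 4.01, overlapping with 8C, and in morulae at 17.7, 31.6 and 32.1, of which the lowest is above every 16C library. In EarlyB it stood at 21.4, 17.3 and 21.9, overlapping with the morula, and in ExpB at 7.70, 7.29, 7.78 and 8.54, below every EarlyB library. At the step to the morula KDM5A rose by 2.67 (SE 0.22, adjusted p = 1.25e-09), 8.20-fold in mean FPKM. From EarlyB to ExpB it fell by 1.26 (SE 0.21, adjusted p = 5.27e-05). All tested genes shifted by a median of −0.30 at this step, and with median-ratio scaling, where that shift is −0.08, the KDM5A difference was −0.90 and was not called.

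KDM5B began lower than its relative and ended above it. It stood at 0.0715 and 0.0885 FPKM in MII, at 0.319, 0.211, 0.183 and 0.105 in 2C, at 0.509, 0.664 and 0.954 in 4C, and at 0.246, 1.05, 0.538 and 0.238 in 8C. In 16C it stood at 1.28, 1.42 and 4.79, with library 3 more than 3 times the others. In morulae KDM5B stood at 24.0, 37.4 and 52.7, in EarlyB at 22.9, 16.6 and 19.5, and in ExpB at 12.1, 9.77, 9.21 and 9.28. Each of these 3 stages was apart from its neighbours, with no overlap between libraries. From 8C to 16C KDM5B rose by 1.097 (SE 0.27, adjusted p = 0.00708), a call that rests on 16C library 3, since without it the difference was 0.66 (adjusted p = 0.078). With the 8C and 16C libraries fitted alone the adjusted p was 0.195. From 16C to the morula it rose by 3.55 (SE 0.29, adjusted p = 1e-09), and with each library left out in turn this difference lay between 3.29 and 3.98. From MII to ExpB KDM5B rose by 3.35 (SE 0.31, adjusted p = 1.43e-09), 126-fold in mean FPKM.

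Related members were then compared within each library, as differences of log2(FPKM + 1), and the test asked whether that difference varied over the 8 stages (permutation test of the F statistic, 100000 resamples, Benjamini-Hochberg over 3 pairs). KDM1B minus KDM1A was −1.001 ± 0.23 (SD, n = 2) in MII, 0.04 ± 0.87 (n = 3) in 16C and −2.80 ± 0.14 (n = 3) in morulae. The large spread in 16C came from library 3 at −0.94, while the others were above 0, the highest at 0.73. The difference varied over stages with p = 1e-05 in the permutation test, the smallest value these resamples can give (adjusted 3e-05). KDM5B minus KDM5A was −1.30 ± 0.08 (n = 2) in MII, −0.43 ± 0.56 (n = 3) in 16C and 0.45 ± 0.23 (n = 3) in morulae, and varied over stages (permutation p = 5e-05, adjusted 7.5e-05). Up to 8C KDM5B was near or below 1 FPKM, so the 1 added before the log understates its distance from KDM5A there. KDM5A was thus the higher of the pair in every library up to 8C, and KDM5B in every morula and every ExpB library. Neither was the higher in all libraries of 16C, where the difference ran from −0.85 to 0.21. The same held in EarlyB, at −0.04 ± 0.13 (n = 3), from −0.16 to 0.09. KDM4C minus KDM4A stayed above 0 in all libraries, from 0.516 to 1.77, and no variation over stages was detected (permutation p = 0.174, adjusted 0.174). With Morula library 3 left out that p was 0.0236.

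**Figure D4:**
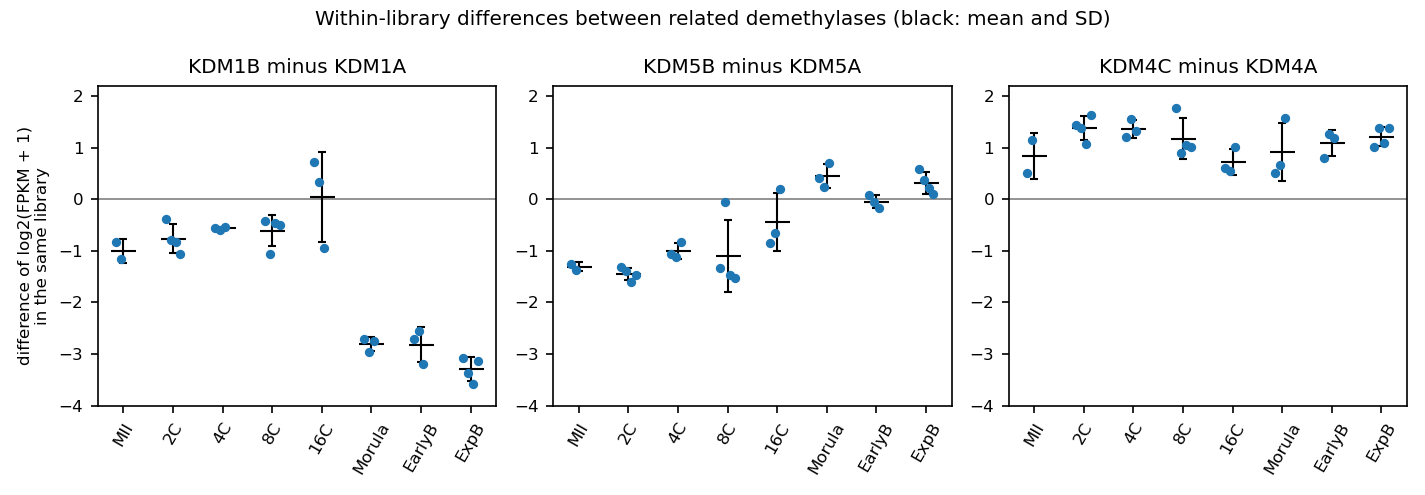
Difference in log2(FPKM + 1) between related genes within the same library (y axis) by stage (x axis), with points for libraries and black marks for the mean and SD of a stage. KDM1B minus KDM1A drops to −2.80 in morulae, KDM5B minus KDM5A changes sign between 16C (mean −0.43) and the morula (mean 0.45), and KDM4C minus KDM4A is above 0 throughout.

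Among the members that act on H3K9, KDM3A alone had a called change. KDM3A, which clears mono- and dimethylated H3K9, stood between 4.48 and 8.28 FPKM in all libraries up to 8C. It stood at 9.84, 12.9 and 11.1 in 16C, above every 8C library, at 14.04, 36.5 and 15.01 in morulae, at 11.1, 10.3 and 13.9 in EarlyB, and between 5.18 and 6.23 in ExpB. Morula library 2 was more than 2 times the other morulae. From 8C to the morula KDM3A rose by 1.61 (SE 0.24, adjusted p = 3.32e-06), and by 1.19 with Morula library 2 left out. The separate steps were both short of 1. They had differences of 0.84 (16C against 8C, adjusted p = 0.0194) and 0.77 (Morula against 16C, adjusted p = 0.0129). The step from 16C to the morula was 0.35 (limma adjusted p = 0.17) without Morula library 2, and was called without Morula library 1. It was 0.42 (adjusted p = 0.205) on the TPM scale and 0.55 (adjusted p = 0.0661) with median-ratio scaling. After quantile normalization it was 0.55 (adjusted p = 0.0699), and with a pseudocount of 0.1 it was 0.81 (adjusted p = 0.0167). The step back from EarlyB to ExpB was −0.92 (limma adjusted p = 0.00432), also short of 1. All tested genes shifted by a median of −0.30 at this step. With median-ratio scaling the KDM3A difference was −0.57 (adjusted p = 0.0685), and after quantile normalization −0.67 (adjusted p = 0.0362).

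KDM4A and KDM4C, which act on trimethylated H3K9 and H3K36, had no called step. KDM4A ran from 0.974 FPKM in an ExpB library to 3.16 in an EarlyB library, and every stage overlapped with its neighbour in the order of means. Its largest step was −0.66 from EarlyB to ExpB (SE 0.16, limma adjusted p = 0.00251). That difference depended on the scaling, being −0.39 (adjusted p = 0.065) with median-ratio scaling and −0.18 (adjusted p = 0.419) after quantile normalization. KDM4C stood at 2.09 and 4.24 FPKM in MII and at 6.81, 6.001, 5.27 and 7.61 in 2C, with no overlap between these groups. That difference of 0.87 (SE 0.21, adjusted p = 0.0101) was short of 1, and it was 0.49 (adjusted p = 0.495) without MII library 1 and 1.25 (adjusted p = 0.00241) without MII library 2. On the TPM scale it was 1.13, and with a pseudocount of 0.1 it was 1.07, both called. Both genes varied over the stages in the F test, KDM4C with adjusted p = 0.00136.

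KDM2B binds unmethylated CpG islands and brings a variant Polycomb complex there, with PCGF1, BCOR, RNF2 and SKP1 among its partners. Its transcript was under 1 FPKM in every library up to 16C, from 0.186 in MII to 0.600 in 2C. It was thus among the tested genes only through its late stages, and its rises to them are given as a description. In 16C it stood at 0.522, 0.328 and 0.443, and in morulae at 3.96, 4.29 and 2.73, with no overlap. EarlyB stood at 5.81, 6.17 and 4.28 and ExpB at 7.42, 5.56, 2.93 and 4.34, and these 3 late stages overlapped with their neighbours in level. Between 16C and the morula KDM2B rose by 1.69 (SE 0.21, adjusted p = 3.94e-07), 8.49-fold in mean FPKM. From MII to ExpB it rose by 2.21 (SE 0.22, adjusted p = 6.36e-09), 19.5-fold.

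The partners of KDM2B named here had other patterns. RNF2, PCGF1 and SKP1 were named for large called differences and BCOR after its values were seen, so they do not stand for all listed partners. RNF2, the ubiquitin ligase of the complex, fell from a mean of 543 FPKM in 16C to 80.3 in morulae, by 2.74 (SE 0.23, adjusted p = 1.19e-09). PCGF1, its Polycomb ring finger subunit, had 149 FPKM in morulae and 18.1 in ExpB, against 235 in MII, and from MII to ExpB it fell by 3.65 (adjusted p = 5.25e-11). SKP1, an adaptor of ubiquitin ligases, fell from 4023 FPKM in morulae to 554 in EarlyB, by 2.88 (adjusted p = 7.11e-09). BCOR, a corepressor, was at 2.98 in 16C and 2.05 in morulae and was not called (adjusted p = 0.102).

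KDM6B, which removes the Polycomb mark from H3K27, was low throughout and had its highest level in EarlyB. It stood at 1.04 and 0.759 FPKM in MII and at 0.0675, 0.0773, 0.0397 and 0.0655 in 2C, and no library from 2C to 16C was above 0.179. The 2 MII libraries were thus above all cleavage libraries. The difference from MII to 2C was −0.83 (SE 0.16, adjusted p = 0.00123), short of 1, and with a pseudocount of 0.1, which compresses low values less, it was −2.61 and called. Without MII library 1 it was −0.73 (adjusted p = 0.0824). Morulae stood at 0.622, 0.391 and 0.657, EarlyB at 4.13, 3.304 and 2.85, and ExpB at 1.80, 1.05, 0.899 and 1.02. No library of EarlyB overlapped with either neighbour. From the morula to EarlyB KDM6B rose by 1.502 (SE 0.15, adjusted p = 4.19e-08), 6.16-fold in mean FPKM.

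The later fall of KDM6B was close to the minimum difference. From EarlyB to ExpB it fell by 1.02 (SE 0.14, adjusted p = 5.64e-06). The call was lost with median-ratio scaling (−0.74), with quantile normalization (−0.55), and without EarlyB library 1 (−0.91) or ExpB library 2 (−0.99), 3 (−0.96) or 4 (−0.99), with every adjusted p still under 0.05. Trophectoderm markers had a sum of 103 to 154 FPKM in morulae, of 2007 to 2629 in EarlyB and of 3334 to 7526 in ExpB, so they are higher in ExpB, where KDM6B is lower than in EarlyB. Inner cell mass markers summed to between 55.8 and 65.6 in morulae, between 119 and 133 in EarlyB and between 66.2 and 94.8 in ExpB, and their part in the KDM6B values was not tested.

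The order of the 9 members by level changed accordingly. In MII it ran KDM1A, KDM1B, KDM3A, KDM4C, KDM5A, KDM4A, KDM6B, KDM2B and KDM5B, from 118 to 0.0800 FPKM, and no neighbours in that order overlapped, with 2 libraries each. In 16C KDM1A and KDM1B, with means of 27.6 and 27.5, overlapped. In morulae the order began with KDM5B (38.0), KDM5A (27.1), KDM1A (25.8) and KDM3A (21.9), which overlapped each with the next, and ended with KDM6B (0.557). In ExpB KDM1A was highest again (14.9), followed by KDM5B (10.1) and KDM5A (7.83) with no overlap, and KDM1B was lowest (0.620).

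The remaining demethylases and the partners of KDM1A, KDM1B and KDM2B were taken from lists chosen with earlier results of these data known. Of 17 other demethylases named, 14 were in the table and 13 tested, and HR was under 0.165 FPKM in every library. At the morula step 4 of the 13 rose and 1 fell, where 43.1% of all genes were called, and the median difference, 0.29, turned to −0.18 after quantile normalization. KDM6A, the X-linked H3K27 demethylase related to KDM6B, rose from 5.41 to 25.3 FPKM by 2.21 (SE 0.35, adjusted p = 1.01e-05). KDM2A, the relative of KDM2B, rose from 3.95 to 23.2 FPKM by 2.32 (SE 0.27, adjusted p = 1.49e-07). JMJD6 rose from 1.97 to 12.7 FPKM, by 2.14 (SE 0.30, adjusted p = 1.98e-06). KDM7A, which acts on H3K9 and H3K27, fell from 9.54 to 2.77 FPKM by 1.37 (adjusted p = 8.47e-05), and with these stages fitted alone its adjusted p was 0.064. KDM4B, the third of the KDM4 enzymes measured, rose after the morula, from 0.305 to 2.60 FPKM in EarlyB (difference 1.44, adjusted p = 5.17e-07).

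Partners moved in both directions. Of 22 partner genes named, 21 were in the table and 18 tested, with RCOR2 and BCORL1 under 1 FPKM in every library. At the morula step 3 of 18 rose and 4 fell, and the median difference, 0.03, turned to −0.33 in TPM. HDAC1, a histone deacetylase of the CoREST complex, rose from 11.2 to 70.9 FPKM by 2.92 (SE 0.39, adjusted p = 9.73e-07). It had risen from 2.63 in 8C (adjusted p = 0.0106), a call that was lost without 16C library 3 (difference 0.66, adjusted p = 0.106). HDAC2 rose earlier, from 124 FPKM in 8C to 402 in 16C by 1.54 (SE 0.28, adjusted p = 0.000503, and 0.103 with these stages fitted alone), the step at which KDM1A fell. RCOR3, a CoREST scaffold, rose from 5.99 to 15.2 FPKM by 1.40 (SE 0.35, adjusted p = 0.00144, and 0.0611 with these stages fitted alone). ZMYM2, a zinc finger protein found with the complex, was at 44.0 FPKM in MII and 6.13 in ExpB, and fell by 2.59 (adjusted p = 6.91e-08).

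**Figure D5:**
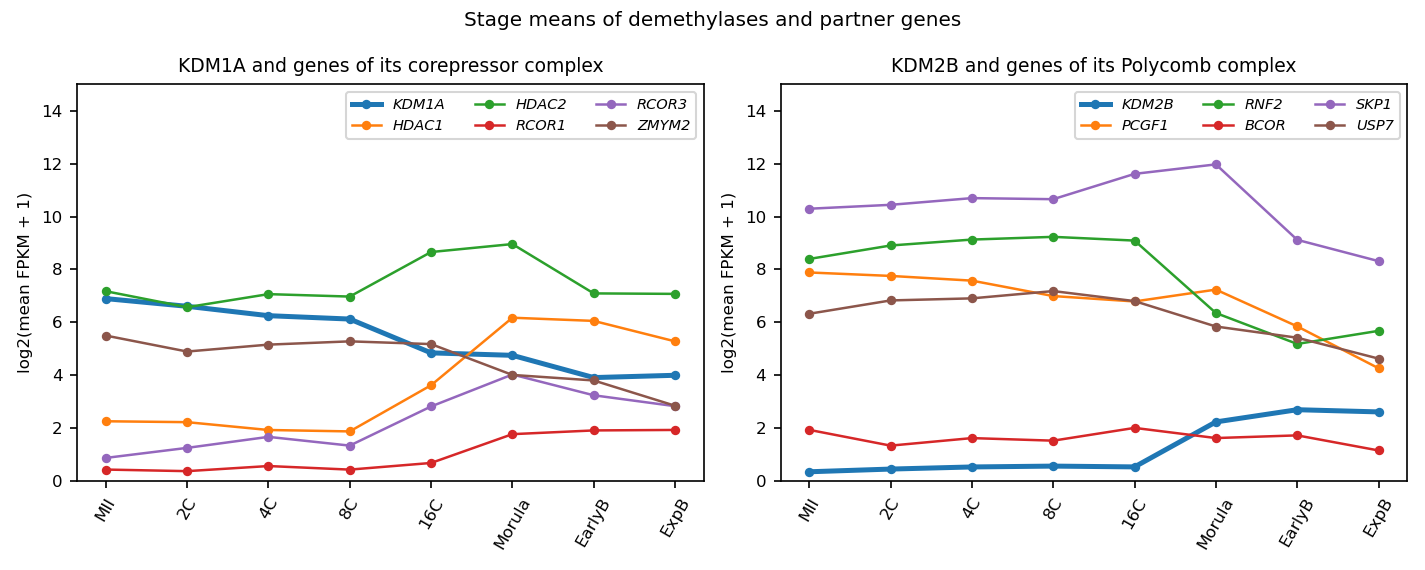
Stage means as log2(mean FPKM + 1) (y axis) by stage (x axis) for KDM1A with 5 genes of its corepressor complex (left) and for KDM2B with 5 genes of its Polycomb complex (right), members as thick lines. KDM1A declines while HDAC1 climbs to 70.9 FPKM in morulae, and KDM2B climbs where RNF2 declines from 543 to 80.3 FPKM.

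The genes whose pattern over the 26 libraries was most like each member's were named by Pearson correlation of log2(FPKM + 1), as a description across libraries that share stage and depth. For KDM1A they were SMC2 (0.97), PSMA4 (0.96) and TTC27 (0.96). For KDM1B they were ATP10D, LOC101115786 and LOC101120706, each at 0.99, with LOC101120706 at 310.4 FPKM in MII and at 0 in ExpB. For KDM2B they were RREB1, PLPP2 and RBKS, each at 0.98, and for KDM3A they included PAF1 and RSBN1, both at 0.90. For KDM5A they were BAD, CPLX1 (both 0.98) and LOC114109523 (0.97), and for KDM5B YKT6, MRTO4 and CCDC124, each at 0.98. KDM6B was closest to MCRIP2 (0.96), C14H19orf54 (0.96) and DNLZ (0.95). KDM4A and KDM4C had weaker matches, with RNF4 and C2CD2 at 0.78 for KDM4A, and LOC101111156 at 0.78, DNAJC14 at 0.76 and FANCD2 at 0.74 for KDM4C. Among the members themselves KDM5A and KDM5B were alike (r = 0.96), as were KDM1A and KDM1B (r = 0.90), while KDM1B ran against KDM2B (r = −0.96) and KDM5B (r = −0.91).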

How the data were processed

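The authors deposited FPKM values, 1 column per library, from 26 libraries of polyadenylated RNA. The submitters' processing notes name featureCounts 2.0.1, SAMtools 1.9, HISAT2 2.1.0 and fastp 0.23.4. No coordinates are printed, since the genome build is not given in the sources used here. FPKM is relative to each library's total, so a level can move because other transcripts do. Depth was read off the steps between low FPKM of small RNA genes, of which 99.7% to 100% gave whole reads within 0.05 reads.

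Stages were fitted on log2(FPKM + 1) with limma (version 3.58.1, under R 4.3.3), with lmFit on 8 stage means, contrasts.fit and eBayes with trend (18 residual and 4.6 prior degrees of freedom), two-sided, Benjamini-Hochberg adjusted over 15766 genes within a contrast. Changes are called at adjusted p under 0.05 and a difference of at least 1. On simulated data for Morula against 16C, 83% of genes changed by 1.5 and 99% of those changed by 3 were recovered, with 6 false calls. The 200 changed genes were drawn from those with a mean log2(FPKM + 1) over 1, and no other gene changed. These rates therefore do not cover low members such as KDM6B.

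The members and lists were chosen with earlier results of these data known. Named are all members, the 3 genes most alike in pattern to each (some are not reported here), and, of each list, called genes with the largest differences and genes under 1 FPKM in every library; BCOR was named after its values were seen. Alternatives covered pseudocount, filter, scaling, block, the stages compared alone and each library left out.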

Additional observations from a re-analysis of the deposited data

Results flagged for a closer look

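Groups of 4 libraries were screened for a library far from the others, as the gap to its nearest neighbour over the group's range, with a critical value of 0.829. Of 27 such groups (9 members in 2C, 8C and ExpB) 3 passed, where chance passes about 1 in 20. In 2C, library 1 had the highest KDM1B, 62.8 FPKM against 53.0 to 54.5 in the others. The same library had the highest KDM2B in 2C, 0.600 FPKM against 0.260 to 0.286. In ExpB, library 1 had the highest KDM6B, 1.80 FPKM against 0.899 to 1.05. No member was called in a step that involves 2C, and the fall of KDM6B from EarlyB to ExpB was 1.14 without ExpB library 1.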

How the results depend on the processing

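No member's difference changed direction while called, and for single members 2648 comparisons with an alternative gave the same answer, 15 gained a call and 10 lost it. Many of these comparisons leave out 1 library of a stage outside the contrast, which cannot move the difference. The 2648 is therefore no measure of how firm the answers are. In 2C against MII the count of called members, 0, became 2 with a pseudocount of 0.1, 2 on the TPM scale, 1 after quantile normalization and 2 with no minimum difference. Over all 15766 tested genes, 700 higher and 317 lower became 961 and 375, 1366 and 287, and 375 and 449, in the same order. With no minimum difference 1738 of them passed. In 16C against 8C the count of 2 became 0 with those stages fitted alone and 5 with no minimum difference. Over all tested genes, 874 higher and 317 lower became 251 and 65 with those stages alone. With no minimum difference 2562 genes passed. In EarlyB against Morula the count of 1 became 2 with the pseudocount of 0.1, 2 on the TPM scale and 6 with no minimum difference. Over all tested genes, 2312 higher and 1949 lower became 3025 and 2519, and 2414 and 2481, in the same order. With no minimum difference 7465 genes passed. In ExpB against EarlyB the count of 2 became 0 with median-ratio scaling, 1 after quantile normalization, 3 with the pseudocount of 0.1 and 6 with no minimum difference. Over all tested genes, 733 higher and 2060 lower became 1225 and 915, 1244 and 1039, and 863 and 3347, in the same order. With no minimum difference 6314 genes passed. The pseudocount of 0.1 also took the members' counts from 4 to 5 in Morula against 16C and from 6 to 7 in Morula against 8C. Over all tested genes it gave 5938 higher and 3093 lower in Morula against 16C. In Morula against 8C, 4817 higher and 3015 lower became 6221 and 3852. With each library left out in turn the members' counts ranged from 0 to 1 in 2C against MII and from 1 to 2 in 16C against 8C. They ranged from 1 to 2 in EarlyB against Morula and from 1 to 4 in ExpB against EarlyB, the 4 without EarlyB library 2. The permutation p of KDM4C minus KDM4A ranged from 0.0236 to 0.326. The labels do not say whether replicate numbers pair libraries. Deviations from stage means correlated at a median of 0.004 for 80 pairs with the same number (−0.146 to 0.396) and −0.005 for 214 others (−0.396 to 0.338). Of these, 13 and 21 were over 0.1, and a median cannot decide whether some libraries are paired. With a replicate block the members' counts were those without it, 3 higher and 1 lower in Morula against 16C, while over all genes 52 were higher and 29 lower in 8C against 4C, against 91 and 52 without it. Over all genes the calls from 16C to the morula were 4437 higher and 2364 lower, and 3091 and 3214 after quantile normalization.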

Other observations

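The enzymes that write the marks also changed at the morula. From 16C to the morula 6 of 12 tested H3K4 methyltransferases and core subunits rose and 0 fell, with SETD1B going from 1.28 to 5.40 FPKM and DPY30 from 30.1 to 83.2. On the TPM scale and with median-ratio scaling the counts were 4 and 1, and after quantile normalization 2 and 2. Of 6 tested H3K9 methyltransferases 1 rose and 1 fell: SUV39H1 went from 0.947 to 4.68 FPKM (difference 1.505, adjusted p = 9.73e-05) and its relative SUV39H2 from 34.2 to 8.88 (difference −1.86, adjusted p = 1.34e-07). Of 8 tested H3K36 methyltransferases 3 rose under every scaling tried, among them SETD2, the trimethylating enzyme, from 2.35 to 12.3 FPKM (difference 1.98, adjusted p = 7.58e-09) and ASH1L from 3.76 to 15.7. In limma's test 43.1% of all tested genes were called at this step, so these shares are not particular to the writers.

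Of 9 tested genes of the H3K27 methyltransferase complex 3 rose and 2 fell at that step, and with median-ratio scaling 0 rose and 2 fell. EED, a core subunit, moved earlier, from 7.30 FPKM in 8C to 77.6 in 16C (difference 3.02, limma adjusted p = 0.000114, and 0.103 with those stages fitted alone). JARID2 fell from 23.2 to 8.21 FPKM between 16C and the morula (difference −1.41, limma adjusted p = 4.29e-05) and rose to 23.5 in EarlyB. KMT2D, PHF19 and SETMAR were under 1 FPKM in every library, and KDM4D, KDM5D, UTY, RYBP, PRDM9, SETDB2 and ATF7IP were not analysed here.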
